A study of Mus musculus with 157 samples.

Results

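The SR and hnRNP splicing factor genes of mouse splenic B cells were followed along polysome gradients after DNA damage. They were taken by name alone, as the protein-coding rows of the count table whose symbol begins with Srsf and a digit or with Hnrnp. This gave 28 genes, 11 Srsf and 17 Hnrnp, of 16519 protein-coding genes and 19600 genes in all. Together they held 1029434 of 156885278 counts (0.6562%), with 288002 counts (0.1836%) in Srsf and 741432 counts (0.4726%) in Hnrnp genes. The values were 3′ end tags, which report 1 tag per mRNA end, so the level of a gene is given in CPM, the count per 1000000 counts of the library sum, with no division by length.

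Primary splenic B cells of C57BL/6Babr mice, for which the labels name no genetic change, were activated in culture with lipopolysaccharide (LPS, 10 µg/ml), a mitogen for B cells. The LPS group had 48 h of LPS and nothing else. The LPS + ET group had 48 h of LPS and then the topoisomerase II inhibitor etoposide, which leaves DNA double-strand breaks, at 20 µM for 4 h. The LPS + ET + KU55933 group had 47 h of LPS, then 1 h with KU55933 (10 µM), which inhibits the kinase ATM, and etoposide at 20 µM for 4 h, so all 3 groups carried LPS and the last 2 shared etoposide. Cytoplasmic extracts were made with cycloheximide (100 µg/ml, 3 min) in every group. Each group had 4 gradients, 1 in each of the library pools LUL15, LUL16, LUL17 and LUL18, and each gradient gave 13 libraries, from fraction 4 to fraction 16. Fractions 4 to 7 held monosomes, 8 to 10 light polysomes and 11 to 16 heavy polysomes. The study describes its polysome data as coming from 4 biological replicates. No source used here says whether the gradients came from separate mice, so p-values measure the spread between gradients. Values per gradient are given below in the order LUL15, LUL16, LUL17 and LUL18.

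SR proteins carry an RNA recognition motif and a domain rich in serine and arginine, whose phosphorylation by SRPK and CLK kinases governs their place in the nucleus. They bind exonic enhancers and help the spliceosome to pick splice sites. The hnRNP proteins coat nascent transcripts, often oppose SR proteins at splice sites, and take part in mRNA export, stability and translation. Many members of both families keep their own level steady through splicing of poison exons in their mRNAs or through retained introns.

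The libraries held 14724 to 4170688 counts (median 811932), and the gradients 6404957 to 21449781. The gradient LPS + ET of pool LUL16 stood apart, with the lowest total and 30.4% of its counts in heavy polysomes, against 60.5 to 68.2% in the other 3 LPS + ET gradients, 52.3 to 62.4% in LPS and 37.6 to 55.5% in LPS + ET + KU55933. Results that rest on it are given with and without it. The same RNA concentration went into each library, so a class of fractions shows a gene's share among the mRNAs of that class and not the amount of mRNA it held. The summed CPM of 6 B cell marker genes was 2904 to 4063 in LPS, 2093 to 3116 in LPS + ET and 2377 to 3572 in LPS + ET + KU55933. T cell markers reached at most 2.58 CPM in any gradient and the erythroid marker Alas2 at most 0.224, while 5 myeloid markers summed to 45.5 to 98.2 in LPS, 71.0 to 182 in LPS + ET and 66.3 to 136 in LPS + ET + KU55933. The 4 plasma cell markers summed to 301 to 428 CPM in LPS, 333 to 568 with etoposide and 171 to 333 with both agents, and their members moved apart. Sdc1 lay at 3.75 to 6.79, 41.2 to 92.6 and 12.2 to 27 CPM in these groups, Irf4 at 165 to 229, 187 to 275 and 92.8 to 122 CPM, Prdm1 at 38.3 to 75.3, 19.4 to 80.2 and 6.53 to 48.3 CPM, and Xbp1 at 85.3 to 120, 38.9 to 172 and 49.7 to 150 CPM. The part of these markers, or of the share of cells of any type, in the results that follow was not tested, and in bulk samples fewer cells of a type and less RNA per cell cannot be told apart.

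The tags end at poly(A) sites, and the sites show which mRNA forms were measured. The 28 genes had 64 sites, 11 genes had a single site, and the most used site of a gene took 43.2 to 100% of its counts. Of the 28 main sites, 24 lay in a 3′ UTR, 2 just outside the annotated gene, 1 in an intron (Hnrnph2) and 1 in an exon of a noncoding transcript (Hnrnpa2b1), against 59.3% of main sites in a 3′ UTR over 19264 genes with an annotation. The 19264 genes include noncoding ones, which have no 3′ UTR, so the sets are not alike. The 30 bases that end at the main site are shown for the 10 genes whose levels or distribution the results turn on, from GENCODE M21 transcripts on GRCm38, 5′ to 3′, with the poly(A) hexamer AATAAA in capitals:
Srsf2: gtgttttcttggtgttagcttttttgagaa (chr11:116849901-116849930, minus strand)
Srsf3: gttatctttaaacAATAAAtttcagtaaaa (chr17:29042863-29042892, plus strand)
Srsf5: gatAATAAAatactaagtattataaaactg (chr12:80950477-80950506, plus strand)
Srsf7: tgacacgtttaAATAAAatgtttctaacta (chr17:80201312-80201341, minus strand)
Srsf12: gtgttcctctgtAATAAAgcaattgtaacg (chr4:33233311-33233340, plus strand)
Hnrnpa2b1: AATAAAataattctaaaggaaattgtgtaa (chr6:51462752-51462781, minus strand)
Hnrnpa3: gagcaaaggAATAAAagtcactcattgaaa (chr2:75666472-75666501, plus strand)
Hnrnpab: tgaAATAAAaatgaaaaacaaaacccccaa (chr11:51600869-51600898, minus strand)
Hnrnpd: ggttttttAATAAAtccttttgtataaaaa (chr5:99961002-99961031, minus strand)
Hnrnpm: gactttgatAATAAAtaccagttcctgaaa (chr17:33646236-33646265, minus strand)
Of these, only Srsf2 lacked the hexamer, and the Srsf12 site lay 2 bases past the annotated end at which its window stops. Over all members with such a window, 20 of 27 held AATAAA and 1 held ATTAAA on the transcript strand, against 57.0% and 15.9% of 13879 windows over all genes. Those windows were not limited to protein-coding genes. Hnrnpa2b1, Hnrnpa3, Hnrnpm, Srsf5 and Srsf12 had 1 site each, so their levels come from a single 3′ end. Srsf3 had 3 sites, with 74.1% of counts at the main one, and Srsf7 had 2, with 73.1%. The site counts are totals over all libraries, so the use of sites could not be compared between treatments.

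In LPS the 2 families differed in level. Summed over the 17 Hnrnp genes, ribosome-associated mRNA (fractions 4 to 16) came to 6763, 6133, 5451 and 5159 CPM, and over the 11 Srsf genes to 2709, 2281, 1906 and 1924 CPM. The highest members over all 12 gradients were Hnrnpc, whose protein packages nascent transcripts, at 920 CPM, Hnrnpa2b1 at 811 CPM, Hnrnpab at 670 CPM and Srsf6, the most abundant SR mRNA, at 426 CPM. Hnrnpa0 (389 CPM), Hnrnpul1 (387 CPM), Hnrnpu, a scaffold protein that binds chromatin-associated RNA (344 CPM), and Srsf4 (339 CPM) came next. At the other end lay Srsf10 (8.52 CPM), Hnrnph1 (4.55 CPM), Hnrnpa1 (4.42 CPM), Srsf12 (1.48 CPM) and Hnrnph2, with 10 counts in all. Hnrnpa1 has many processed pseudogenes, with which it can share tags, so its level is uncertain. Hnrnph2 failed the filter on low counts in every test, which left 27 genes tested in the gradient sums and in the class ratios, 26 in light and heavy polysomes and 25 in monosomes.

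The summed level of both families was lower after etoposide than in LPS in each of the 4 pools, while the ranges over the pools overlapped. Over the Hnrnp genes the sum was 5757, 4197, 4346 and 4120 CPM in LPS + ET (4605 ± 773, SD, n = 4) against 5876 ± 718 in LPS. Over the Srsf genes it was 2423, 1446, 1873 and 1582 CPM (1831 ± 433) against 2205 ± 378. With KU55933 the sums were 4086, 4130, 3344 and 2867 CPM (3607 ± 611) for Hnrnp and 1827, 1478, 1358 and 1142 CPM (1451 ± 287) for Srsf genes. Each of these was below the LPS gradient with the lowest sum of its family. In all these sums deep libraries weigh more.

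Gene by gene, 3 of 27 members fell in LPS + ET against LPS, as tested with edgeR at an adjusted p below 0.01, where the same test called 4.81% of all genes lower. The test also called Srsf12 higher, for 4 calls in all (12.7% of all genes), but that gene passed the filter on low counts only through the etoposide groups, where it is high, so its calls are no support for a difference. The median log2 fold change of the members was -0.37, and 22 of 27 were below 0, against a median of 0.03 and 48.4% below 0 over all genes. The groups of 4 gradients did not overlap for 6 lower members (Srsf2, Srsf3, Srsf7, Hnrnpa3, Hnrnpd and Hnrnpul1) and 1 higher member (Srsf12), where 26.4% of all genes did not overlap in either direction. Without LPS + ET of LUL16 the count was again 4 (13.5% of all genes), with Srsf3, Srsf7, Srsf12 and Hnrnpd. With the pool as a block, 13 of 27 members were called (26.7% of all genes), 12 of them lower.

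Srsf3, the smallest SR protein, which shuttles out of the nucleus and aids mRNA export, had the largest fall among the called SR genes. Its level was 428, 328, 332 and 333 CPM in LPS, 229, 88.2, 159 and 145 CPM in LPS + ET, and 200, 98.3, 132 and 140 CPM in LPS + ET + KU55933. Every LPS gradient was above every etoposide gradient with or without the inhibitor, and LPS + ET of LUL16 was the lowest of all. The log2 fold change in LPS + ET was -1.32 ± 0.248 (SE; adjusted p = 0.00185), or -1.14 ± 0.213 without that gradient (adjusted p = 0.00214). Srsf7, a shuttling SR protein with an export role like that of Srsf3, went from 147, 129, 116 and 136 CPM in LPS to 85.0, 54.5, 75.8 and 73.4 CPM in LPS + ET and 72.6, 61.8, 70.4 and 61.1 CPM in LPS + ET + KU55933. The groups with and without etoposide did not overlap, and the log2 fold change was -0.99 ± 0.155 (adjusted p = 0.000484).

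Hnrnpd, also known as AUF1, which binds AU-rich elements and speeds the decay of many mRNAs, was the hnRNP gene with the clearest fall. It was at 358, 392, 441 and 499 CPM in LPS, 160, 180, 198 and 204 CPM in LPS + ET, and 138, 174, 168 and 151 CPM in LPS + ET + KU55933. No etoposide gradient reached the lowest LPS gradient. The log2 fold change was -1.30 ± 0.187 in LPS + ET (adjusted p = 0.000262) and -1.54 ± 0.189 in LPS + ET + KU55933 (adjusted p = 0.000133) against LPS.

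Hnrnpa3, an hnRNP A/B protein, lay at the threshold after etoposide. Its 70.6, 60.5, 42.4 and 45.1 CPM in LPS compare with 42.3, 30.6, 24.5 and 23.4 CPM in LPS + ET and 29.8, 33.2, 19.1 and 16.8 CPM in LPS + ET + KU55933. The highest LPS + ET gradient was just below the lowest LPS gradient, and the log2 fold change of -0.98 ± 0.242 had an adjusted p of 0.01, which did not pass. With the pool as a block it was -0.97 ± 0.131 (adjusted p = 5.34e-05).

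**Figure D1:**
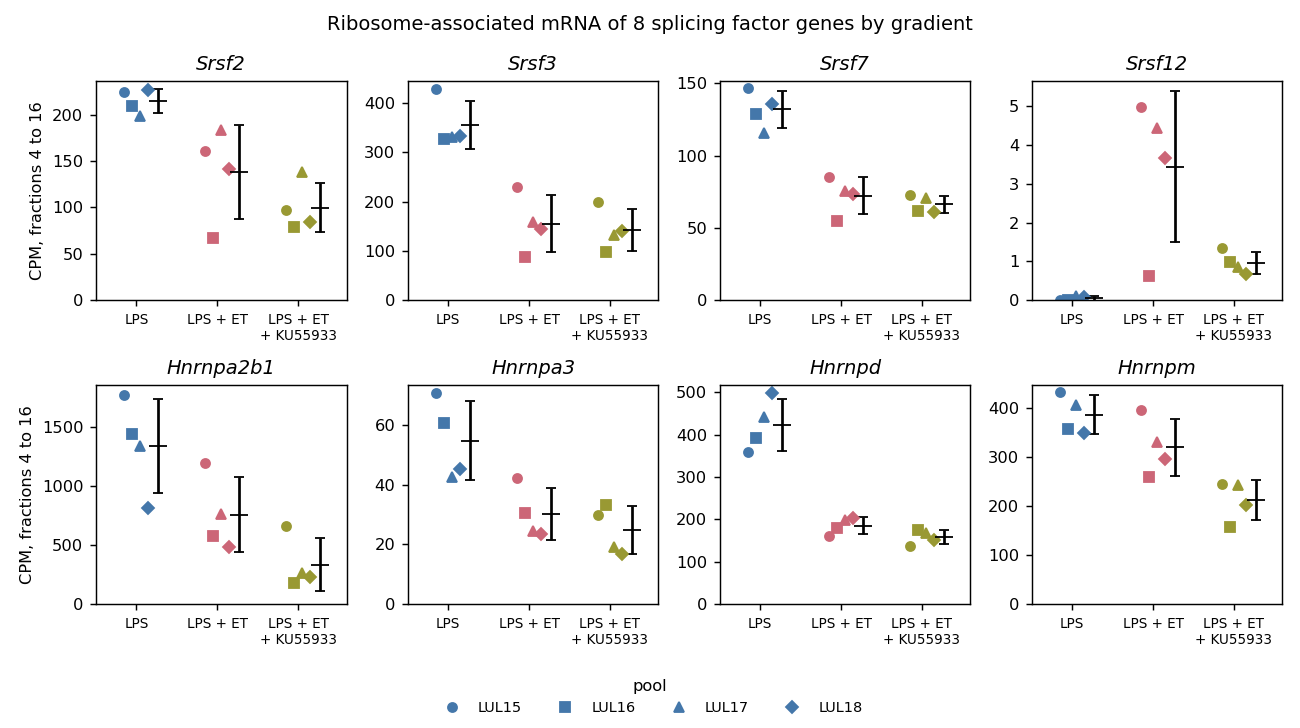
Ribosome-associated mRNA (CPM over fractions 4 to 16, linear axis from 0) of 8 SR and hnRNP genes. They are those called in any comparison of treatments in the gradient sums, in the fit without the pool. Each gradient is 1 symbol, with a symbol shape per library pool and the mean ± SD of 4 gradients as a black bar. Srsf3, Srsf7 and Hnrnpd are lower in all 8 etoposide gradients than in any LPS gradient, and Srsf12 goes from 0 to 0.108 CPM in LPS to 0.625 to 4.98 CPM in LPS + ET.

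Srsf12 moved the other way, from near absence. This SR-related protein is known as a splicing repressor with a restricted tissue range. It had 0 counts in 2 LPS gradients and 1 count in each of the other 2, for 2 counts in all. In LPS + ET it had 161 counts (4.98, 0.625, 4.42 and 3.67 CPM) and in LPS + ET + KU55933 55 counts (1.35, 0.979, 0.854 and 0.676 CPM). Pooled over gradients, the ratio to LPS was 105 in LPS + ET (95% exact interval 28.7 to 877, counting error only) and 25.9 in LPS + ET + KU55933 (6.85 to 220), and the ratio of LPS + ET + KU55933 to LPS + ET was 0.246 (0.178 to 0.336). In 3 of 4 pools the gradient with KU55933 was lower than that with etoposide alone, and LUL16 was the exception. Its 2 counts in LPS could not have passed the filter, so the edgeR calls against LPS rest on that selection and are given as a description. The one with both agents was lost without LPS of LUL15 (adjusted p = 0.0128) or of LUL16 (adjusted p = 0.0131), the 2 gradients with no count. The difference between the etoposide groups was not called (log2 fold change -1.85 ± 0.529, adjusted p = 0.0852). Fitted fold changes of a gene this low in LPS depend on the prior count.

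In the edgeR fit without the pool, the inhibitor made no called difference on top of etoposide, while 3 members were called with the pool as a block. In LPS + ET + KU55933 against LPS + ET the test called 0 of 27 members, where it called 0.455% of all genes. Unadjusted, 6 members had p below 0.05 (15.9% of all genes), DESeq2 called 1 member (3.24% of all genes), and fitting the pool as a block gave 3 (6.36% of all genes): Hnrnpa2b1 (-1.26 ± 0.21), Hnrnpk (-0.69 ± 0.121) and Hnrnpm (-0.60 ± 0.13). The members' median log2 fold change was -0.29 and 25 of 27 were below 0, against 0.04 and 46.7% below 0 over all genes. The groups did not overlap for Hnrnpk and Hnrnpm (8.26% of all genes). Hnrnpk, a poly(C)-binding protein with roles from splicing to translation, was at 217, 194, 164 and 232 CPM in LPS, 249, 237, 161 and 207 CPM in LPS + ET and 160, 146, 97.5 and 129 CPM in LPS + ET + KU55933. Its level with etoposide alone overlapped that in LPS, while with the inhibitor it was below every other gradient.

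With etoposide and KU55933 together, 7 of 27 members were lower than in LPS (4.42% of all genes lower). With Srsf12, whose call rests on the filter, 8 of 27 were called (10.7% of all genes). The median of the members was -0.76, and 26 of 27 were below 0, against 0.09 and 44.4% over all genes. These sums weigh deep libraries more. Heavy polysomes held 37.6 to 55.5% of a gradient's counts with both agents, against 52.3 to 62.4% in LPS. With equal weight per fraction fewer members were called, as given in the last section. The part of depth in these falls was not tested. The groups did not overlap for 9 lower members and for Srsf12, where 26.3% of all genes did not overlap. LPS + ET and LPS + ET + KU55933 were both compared with the same 4 LPS gradients, so their counts are not independent. Without LPS of LUL15 the count was 5 of 27 (5.78% of all genes), and with the pool as a block it was 16 of 27 (28.1%).

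Hnrnpa2b1, which binds and sorts RNA and reads methylated adenosine marks, was lowest against LPS in this comparison. It was at 1774, 1441, 1340 and 814 CPM in LPS, 1199, 576, 767 and 488 CPM in LPS + ET, and 665, 179, 262 and 229 CPM in LPS + ET + KU55933. LPS and LPS + ET overlapped, LPS and LPS + ET + KU55933 did not, and in every pool the order was LPS, LPS + ET and LPS + ET + KU55933 from high to low. The log2 fold change against LPS was -0.96 ± 0.37 with etoposide (adjusted p = 0.0815, not called) and -2.15 ± 0.383 with both agents (adjusted p = 0.00169). With the pool as a block the former was -1.0 ± 0.208 and was called (adjusted p = 0.00173).

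Hnrnpm, a regulator of alternative splicing, was called only with both agents against LPS in the fit without the pool. Its level was 433, 357, 406 and 349 CPM in LPS, 396, 259, 331 and 295 CPM in LPS + ET, and 245, 157, 242 and 203 CPM in LPS + ET + KU55933. The last group lay wholly below both others, and the log2 fold change against LPS was -0.98 ± 0.174 (adjusted p = 0.00165).

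Srsf2, or SC35, a marker protein of nuclear speckles, was at 224, 209, 199 and 227 CPM in LPS, 161, 66.7, 183 and 141 CPM in LPS + ET, and 97.4, 79.0, 138 and 84.4 CPM in LPS + ET + KU55933. All etoposide gradients were below all LPS gradients. The log2 fold change with both agents was -1.22 ± 0.272 (adjusted p = 0.0065), but this call was lost in 9 of 12 fits that left out 1 gradient (adjusted p 0.0101 to 0.0231), with fold changes of -1.12 to -1.27. Those were all but the fits without LPS + ET of LUL16, LPS + ET of LUL17 and LPS + ET + KU55933 of LUL17. With etoposide alone it was -0.76 ± 0.27 (adjusted p = 0.0596). Hnrnpa3 was lower with both agents at -1.27 ± 0.243 (adjusted p = 0.00271), a call lost without LPS of LUL15, LPS of LUL16 or LPS + ET + KU55933 of LUL18 (adjusted p 0.0101 to 0.0118). Srsf3 (-1.44 ± 0.249, adjusted p = 0.00147) and Srsf7 (-1.11 ± 0.155, adjusted p = 0.000342) were lower with both agents too.

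Of the 8 members with the most mRNA, Hnrnpa2b1 was called in the gradient sums and the other 7 were not, in the fit without the pool. Hnrnpc was at 978, 1030, 756 and 1007 CPM in LPS, 877, 1145, 775 and 977 CPM in LPS + ET and 784, 1275, 743 and 690 CPM in LPS + ET + KU55933. Srsf6 was at 509, 460, 310 and 318 CPM in LPS, 652, 517, 404 and 361 CPM in LPS + ET and 523, 516, 295 and 243 CPM in LPS + ET + KU55933. Both overlapped in all 3 treatments. Hnrnpa0, an hnRNP phosphorylated by the stress kinase MK2, was at 426, 379, 340 and 388 CPM in LPS, 505, 303, 440 and 392 CPM in LPS + ET and 364, 396, 454 and 287 CPM in LPS + ET + KU55933. Hnrnpul1, an hnRNP U-like protein recruited to DNA breaks, was at 463, 492, 427 and 411 CPM in LPS, 319, 385, 344 and 286 CPM in LPS + ET and 325, 519, 365 and 305 CPM in LPS + ET + KU55933. Its LPS and LPS + ET groups did not overlap, but the log2 fold change of -0.54 ± 0.195 was not called (edgeR adjusted p = 0.0626). The block fit called Hnrnpul1, as given below. Srsf4 was at 431, 320, 355 and 251 CPM in LPS, 476, 316, 414 and 285 CPM in LPS + ET and 363, 387, 282 and 184 CPM in LPS + ET + KU55933, and its groups overlapped. Hnrnpu was at 497, 383, 454 and 274 CPM in LPS, 550, 378, 316 and 218 CPM in LPS + ET and 327, 330, 200 and 195 CPM in LPS + ET + KU55933. Hnrnpab was at 952, 876, 611 and 790 CPM in LPS, 1004, 319, 656 and 754 CPM in LPS + ET and 626, 507, 525 and 421 CPM in LPS + ET + KU55933. With both agents the log2 fold change was -0.73 ± 0.26 for Hnrnpu (adjusted p = 0.0584) and -0.76 ± 0.267 for Hnrnpab (adjusted p = 0.0565). Neither was called in any treatment comparison of the sums in the fit without the pool. The LUL16 gradient of LPS + ET was the lowest of all 12 for Hnrnpab. Without that gradient Hnrnpab was called with both agents against LPS (-0.76 ± 0.175, adjusted p = 0.00802), as was Srsf9 (-0.85 ± 0.198, adjusted p = 0.00896).

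Among members of low or middling level, Srsf5, an SR protein that shuttles and binds purine-rich exonic enhancers, went from 50.2, 40.5, 54.3 and 64.6 CPM in LPS to 74.1, 58.7, 93.0 and 83.3 CPM in LPS + ET and 53.6, 44.8, 67.5 and 54.1 CPM in LPS + ET + KU55933. In each pool LPS + ET was the highest of the 3, yet the groups overlapped and no difference was called (0.45 ± 0.205 in LPS + ET, adjusted p = 0.138). Hnrnpa1, the hnRNP best known as an antagonist of SR proteins at splice sites, was at 6.30, 5.76, 6.94 and 4.43 CPM in LPS, 4.72, 3.12, 3.73 and 3.25 CPM in LPS + ET and 4.60, 3.26, 4.66 and 2.25 CPM in LPS + ET + KU55933. Hnrnph3 was at 24.6, 24.3, 25.3 and 17.5 CPM in LPS, 21.1, 20.0, 20.5 and 16.5 CPM in LPS + ET and 17.6, 23.2, 20.8 and 13.6 CPM in LPS + ET + KU55933. The groups of both genes overlapped, and neither was called in the fit without the pool. The block fit added Hnrnpa1, Hnrnpl, Hnrnpr, Hnrnpul1, Srsf1, Srsf2, Srsf10, Hnrnpa2b1 and Hnrnpa3 in LPS + ET. Srsf1, the archetype of the family, shows how far pools differed within a treatment: it was at 469, 400, 139 and 297 CPM in LPS and 318, 107, 103 and 207 CPM in LPS + ET, lower after etoposide in each pool (-1.0 ± 0.246 in the block fit, adjusted p = 0.0052).

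**Figure D2:**
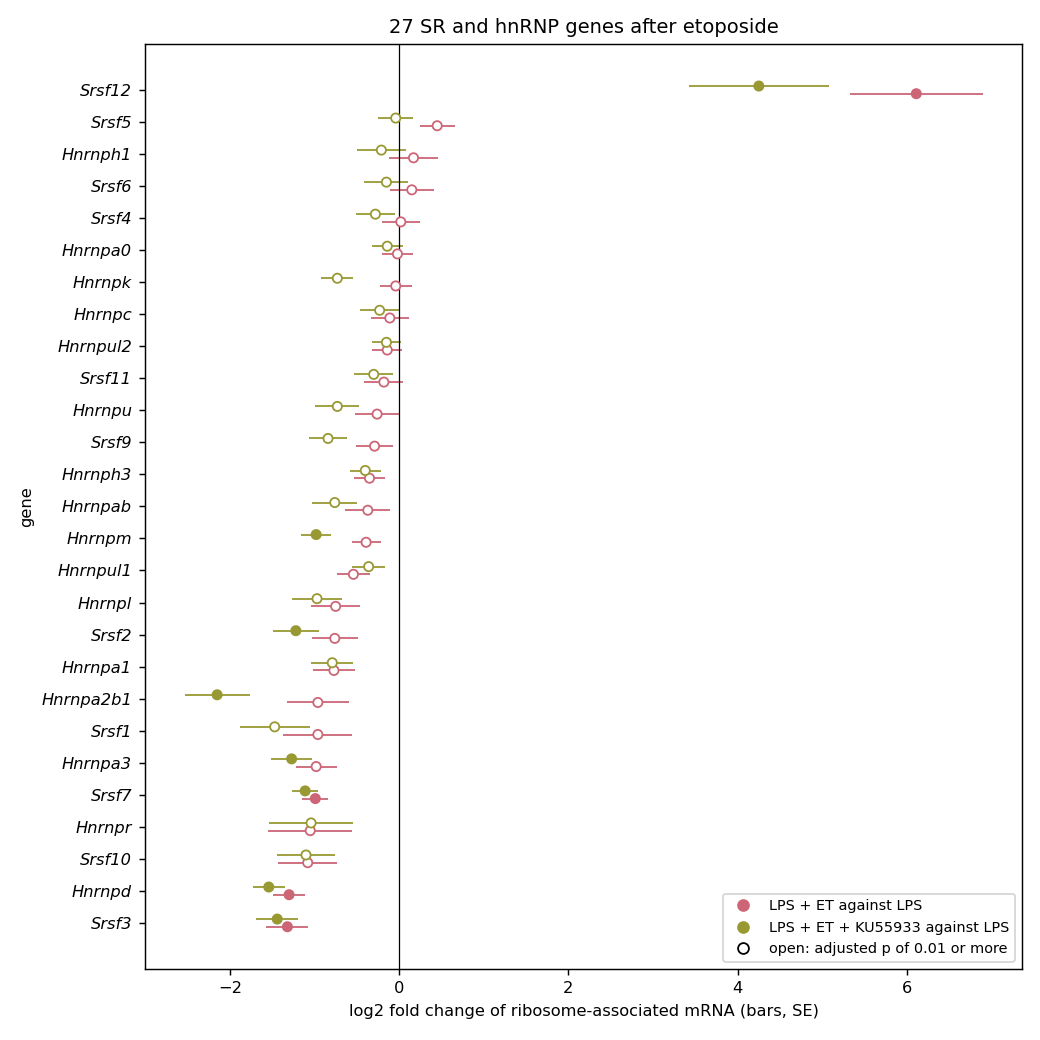
Log2 fold change of ribosome-associated mRNA with its SE for the 27 members tested, against the 4 LPS gradients, in LPS + ET (pink) and LPS + ET + KU55933 (olive), with filled points for an edgeR adjusted p below 0.01. Most points lie left of 0, 22 of 27 with etoposide and 26 of 27 with both agents, and Srsf12 stands apart at 6.11 and 4.25.

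Within the classes of fractions, the calls against LPS lay mostly in heavy polysomes in the fit without the pool. With the pool as a block they were spread more evenly over the classes. In LPS + ET 4 of 26 members were called in heavy polysomes (9.69% of all genes), all lower (3.55% of all genes lower), against 0 of 26 in light polysomes (10.6%) and 1 of 25 in monosomes (9.52%). The 4 were Srsf3 (-1.63 ± 0.373), Hnrnpd (-1.43 ± 0.245), Hnrnpa3 (-1.37 ± 0.295) and Srsf7 (-1.13 ± 0.224). In light polysomes 6 members had an unadjusted p below 0.05 (32.6% of all genes) and DESeq2 called 2 (15.2%). Of the heavy polysome calls, that of Hnrnpd held in all 12 fits that left out 1 gradient. The call of Srsf3 was lost in 7 (adjusted p 0.0108 to 0.0225), those without any 1 LPS gradient, LPS + ET of LUL17 or LUL18, or LPS + ET + KU55933 of LUL18. The call of Hnrnpa3 was lost in 4 (adjusted p 0.0165 to 0.0211), those without LPS of LUL15 or LUL16 or LPS + ET of LUL17 or LUL18, and that of Srsf7 without LPS of LUL15 (adjusted p = 0.0102). Without LPS of LUL15 that left Hnrnpd, and the count of 2 of 27 (6.20% of all genes) was made up by Srsf12, which had no count in heavy polysomes in LPS and passed the filter through the etoposide groups. In the block fit the counts were 9 in heavy polysomes (20.6%), 8 in light polysomes (25%) and 8 in monosomes (24.6%).

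In heavy polysomes Hnrnpd was at 524, 585, 683 and 697 CPM in LPS and 199, 315, 223 and 229 CPM in LPS + ET, and in light polysomes at 166, 208, 163 and 199 CPM in LPS and 108, 150, 179 and 197 CPM in LPS + ET. The heavy polysome groups were far apart and the light polysome groups overlapped. Hnrnpa3 had 107, 97.1, 61.8 and 60.2 CPM in heavy polysomes in LPS and 53.8, 29.8, 26.4 and 25 CPM in LPS + ET, while in light polysomes it had 29.9, 23.2, 22 and 22.6 CPM in LPS and 30.9, 36.2, 28.6 and 28.9 CPM in LPS + ET. Its light polysome groups overlapped, and the difference was 0.23 ± 0.17 on the log2 scale (adjusted p = 0.394). Srsf7 was the one member called in monosomes, at 152, 124, 117 and 141 CPM in LPS and 69.9, 66.2, 65.1 and 71.1 CPM in LPS + ET (-0.91 ± 0.165, adjusted p = 0.0015), with no overlap.

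With both agents, 7 of 26 members were lower in heavy polysomes than in LPS (7.95% of all genes called, 3.01% lower), and all 26 had a fold change below 0, against 47.3% of all genes. They were Hnrnpa2b1 (-2.15 ± 0.411), Hnrnpd (-1.76 ± 0.247), Hnrnpa3 (-1.72 ± 0.297), Srsf3 (-1.61 ± 0.373), Srsf2 (-1.59 ± 0.317), Srsf7 (-1.40 ± 0.225) and Hnrnpm (-1.0 ± 0.221). The calls of Hnrnpd, Hnrnpa3 and Srsf7 held in all 12 fits that left out 1 gradient. That of Srsf3 was lost in 10 (adjusted p 0.0115 to 0.0291), all but those without LPS + ET of LUL15 or LUL16, and that of Hnrnpm in 8 (adjusted p 0.0109 to 0.0226), those without any 1 gradient of LPS or of LPS + ET + KU55933. That of Srsf2 was lost in 5 (adjusted p 0.0117 to 0.0161), those without LPS of LUL15, LUL16 or LUL18 or LPS + ET + KU55933 of LUL15 or LUL18. That of Hnrnpa2b1 was lost in 3 (adjusted p 0.0103 to 0.0128), those without LPS of LUL15 or LPS + ET + KU55933 of LUL17 or LUL18. In light polysomes the only call was Srsf3 (-1.47 ± 0.255; 7.13% of all genes called) and in monosomes the only call was Srsf7 (-0.89 ± 0.162; 5.96%), which was lost without LPS of LUL18 (adjusted p = 0.0107). Without LPS of LUL15 the heavy polysome count was 3 of 27 (3.93%). In the block fit the counts were 13 in heavy polysomes (21.4%), 10 in light polysomes (24.1%) and 10 in monosomes (23.2%). Between LPS + ET + KU55933 and LPS + ET, no member was called in heavy polysomes (0.572% of all genes), light polysomes (0.292%) or monosomes (0.213%). At an unadjusted p below 0.05 there were 5, 3 and 1 members, against 14.9, 15.3 and 13.5% of all genes. DESeq2 called 0 members in these classes (2.49, 2.16 and 1.22% of all genes), and the block fit called Hnrnpa2b1 in heavy polysomes (3.27%) and Srsf5 in light polysomes (5.35%).

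In LPS the Hnrnp mRNAs lay further toward heavy polysomes than the Srsf mRNAs by their counts and medians. In heavy polysomes against monosomes, 14 of 16 Hnrnp genes were higher and none lower, with a median log2 ratio of 1.46, whereas 4 of 11 Srsf genes were higher and 1 was lower, with a median of 0.17. Over both families 19 of 27 were called (51.4% of all genes), 18 of them higher in heavy polysomes (28.5% of all genes), and the all-gene median was 0.11. The highest ratios were those of Hnrnpa2b1 (2.73 ± 0.142), Hnrnpab (2.41 ± 0.169) and Hnrnpa3 (1.94 ± 0.24). The lowest were those of Srsf12 (-2.77 ± 1.54, not called), Srsf5 (-1.41 ± 0.153, adjusted p = 3.39e-10) and Hnrnpa1 (-0.70 ± 0.296, not called). The value of Srsf12 comes from 2 counts in 2 gradients and was -0.01 without LPS of LUL17, so its place as the lowest rests on that gradient. Scaling by relative log expression in place of TMM moved the all-gene median from 0.106 to -0.00904. It left 17 members higher and made Srsf6 and Srsf7 lower beside Srsf5.

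Srsf5 was the member called lower in heavy polysomes than in monosomes. The share of its counts in heavy polysomes, called RiboLoad in the field, was 45.7, 50.3, 56.5 and 54.0% in LPS, where all counts of these gradients had 52.3 to 62.4% there. With each fraction scaled to the same total its highest mean share was in fraction 6, a monosome fraction. Hnrnpa2b1 was the opposite, with 88.5, 86.6, 90.9 and 92.1% of its counts in heavy polysomes and its peak in fraction 13. Hnrnpab, which binds RNA and single-stranded DNA, had 80.4, 74.3, 81.3 and 89.7% there, with its peak in fraction 12. Srsf9 (1.65 ± 0.206) and Hnrnpab (1.09 ± 0.164) were the 2 members most enriched in light polysomes over monosomes, a comparison in which 7 of 27 members were called (24.6% of all genes). Against light polysomes, heavy polysomes held more of 19 members and less of 1, Srsf9 (-0.82 ± 0.196), so that 20 of 27 were called (53.4% of all genes, 29.6% higher). Coding length was weakly related to the heavy-to-monosome ratio across the 27 members (Pearson's r 0.328, Spearman's rho 0.338) and across 10171 genes (0.172 and 0.236). Within the Srsf genes rho was -0.282 (n = 11) and within the Hnrnp genes -0.241 (n = 16). These are correlations across genes of the same libraries, and genes are not independent replicates.

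**Figure D3:**
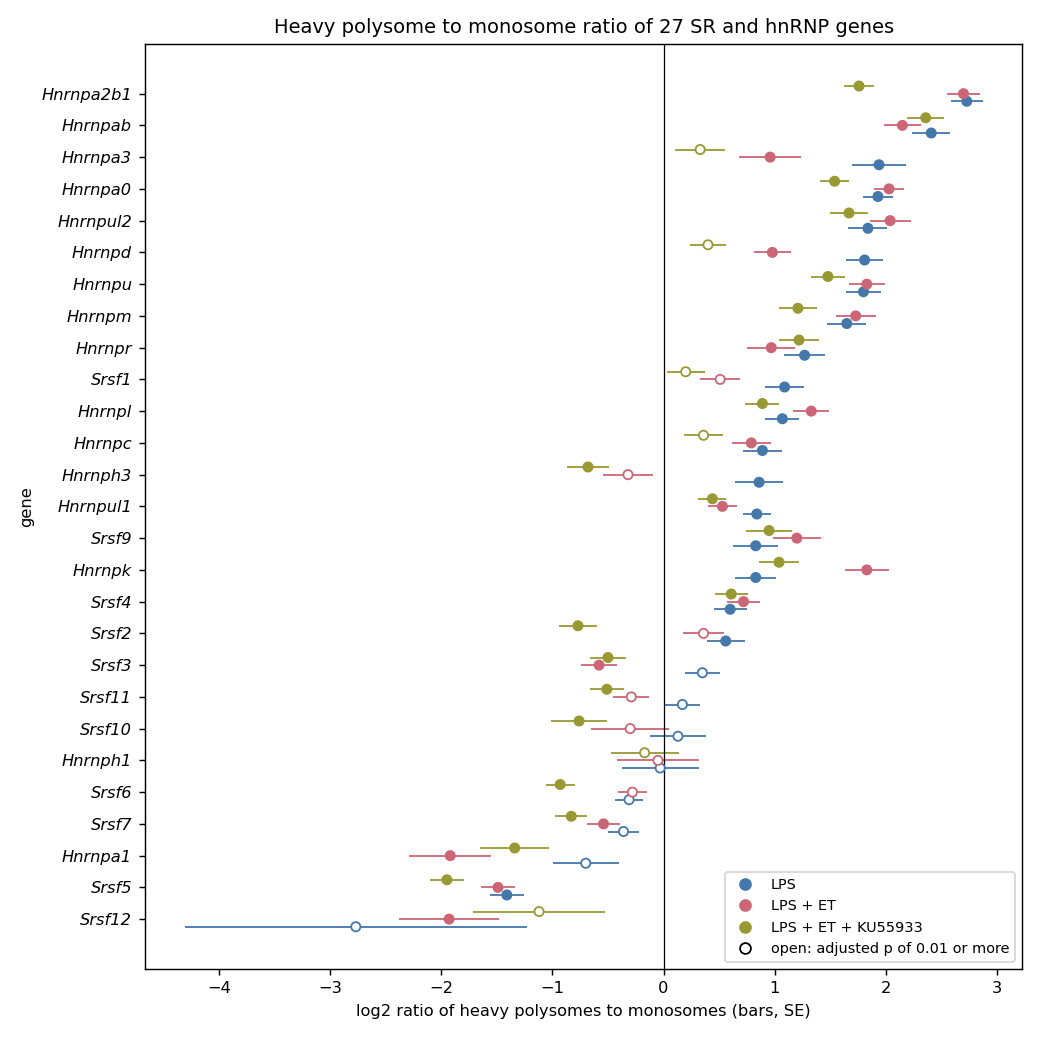
Log2 ratio of heavy polysomes to monosomes with its SE for the 27 members tested, in LPS (blue), LPS + ET (pink) and LPS + ET + KU55933 (olive), ordered by the ratio in LPS, with filled points for an edgeR adjusted p below 0.01. In LPS 14 of 16 Hnrnp genes and 7 of 11 Srsf genes lie above 0, and the olive points of Hnrnpa3, Hnrnpd, Hnrnph3 and Srsf2 lie well left of the blue ones.

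After etoposide, 20 of 27 members differed between heavy polysomes and monosomes in LPS + ET (49.6% of all genes), with 15 higher in heavy polysomes (26.9% of all genes), and 21 of 27 in LPS + ET + KU55933 (54.4%), with 12 higher (29%). The 20 include Srsf12, which passed the filter only through the etoposide groups, so its call is no support for a difference. That call was lost without LPS + ET of LUL15 (adjusted p = 0.0338). The median ratio of the Srsf genes went from 0.17 in LPS to -0.29 with etoposide and -0.76 with both agents, and that of the Hnrnp genes 1.46, 1.15 and 0.96, while the all-gene median was 0.11, 0.09 and 0.09. The Srsf medians include Srsf12, whose ratio in LPS rests on 2 counts. In LPS + ET of LUL16 the heavy polysome shares were lower than in the other gradients for most members, as they were for all genes. Srsf3 had 63.8, 57.6, 61.9 and 67.8% of its counts in heavy polysomes in LPS and 58.8, 16.3, 60.3 and 61.8% in LPS + ET.

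The change of the ratio itself, an interaction of class and treatment, was called for 1 of 27 members in LPS + ET against LPS (5.10% of all genes), Srsf3 (-0.93 ± 0.227, adjusted p = 0.00558). It did not hold without LPS + ET of LUL16, where the change of Srsf3 was -0.71 ± 0.216 (adjusted p = 0.0238) and the 1 member called (5.89% of all genes) was Hnrnpd (-1.02 ± 0.214, adjusted p = 0.00108). Srsf3 was called in 3 of 12 fits that left out 1 gradient, those without LPS + ET of LUL15, LPS + ET + KU55933 of LUL16 or LPS + ET + KU55933 of LUL17. With each fraction scaled to the same total, the heavy polysome share of Srsf3 was 58.0, 52.4, 56.3 and 54.0% in LPS and 44.8, 42.6, 40 and 46.3% in LPS + ET, which did not overlap. The changes of largest size were those of Hnrnpa1 (-1.21 ± 0.46), Hnrnph3 (-1.17 ± 0.317) and Hnrnpk (1.00 ± 0.269), none of them called (adjusted p 0.0115 to 0.0797). Without LPS + ET of LUL16 the change of Hnrnpk was 0.62 (adjusted p = 0.0483). It was called, at 1.03 to 1.21, without LPS + ET of LUL15 or LUL18 or LPS + ET + KU55933 of LUL16, and that of Hnrnph3 without LPS of LUL18 (-1.51). Hnrnpa1 had 65.5, 68.8, 59.4 and 48.3% of its counts in heavy polysomes in LPS and 46.3, 10.0, 62.5 and 50.0% in LPS + ET, which overlapped. The shares in LPS + ET rest on 54, 20, 48 and 38 counts, and the level of Hnrnpa1 is uncertain, as given above. Hnrnpk had 70.5, 75.1, 77.8 and 82.7% there in LPS and 84.5, 73.3, 85.1 and 84.1% in LPS + ET, with the LUL16 gradient below the rest and the groups overlapping. With each fraction scaled to the same total its shares were 64.3, 71.1, 66.2 and 66.1% in LPS and 76.7, 74.4, 71.6 and 73.1% in LPS + ET, which did not overlap. In the block fit 4 members were called (9.04% of all genes): Srsf3, Hnrnpd, Hnrnph3 and Hnrnpk.

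With both agents the ratio was lower than in LPS for 6 of 27 members (5.38% of all genes called, 4.20% lower), and 23 of 27 changes were below 0, against 52.2% over all genes. Hnrnpa3 changed by -1.62 ± 0.333, Hnrnph3, a relative of hnRNP H and F, by -1.53 ± 0.29, and Hnrnpd by -1.42 ± 0.227. Srsf2 changed by -1.33 ± 0.242, Hnrnpa2b1 by -0.97 ± 0.191 and Srsf3 by -0.85 ± 0.222. The heavy polysome share of Hnrnpd was 80.9, 78.0, 86.0 and 87.2% in LPS, 75.6, 53.3, 77.1 and 73.0% in LPS + ET and 59.1, 54.4, 71.0 and 58.3% in LPS + ET + KU55933, with no overlap between LPS and either etoposide group. With each fraction scaled to the same total, its mean share was 76.7% in LPS. On that scale it was 62% in LPS + ET and 62.2% in LPS + ET + KU55933, and these 2 groups overlapped. Hnrnpa3 had 84.2, 83.8, 81.1 and 83.4% in LPS and 53.0, 39.4, 70.1 and 52.5% with both agents. Scaled per fraction, Hnrnpa3 had a mean of 77.4% in LPS and 51.6% with both agents. The change of Hnrnpa3 was lost without LPS of LUL15 (-1.39, adjusted p = 0.017), LPS of LUL16, LPS + ET + KU55933 of LUL16 or LPS + ET + KU55933 of LUL18, and that of Srsf3 was lost in 11 of 12 such fits, all but that without LPS + ET of LUL16 (-0.80 ± 0.196, adjusted p = 0.00366).

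Srsf2 and Hnrnpa2b1 came closest to a difference between the 2 etoposide groups. Srsf2 had 74.8, 71.0, 68.8 and 78.2% of its counts in heavy polysomes in LPS, 80.3, 29.5, 82.5 and 76.5% in LPS + ET and 49.7, 39.6, 58.0 and 48.5% in LPS + ET + KU55933. In these counts, apart from the LUL16 gradient, LPS + ET lay within or above the LPS range and the inhibitor group lay below it. With each fraction scaled to the same total, the shares were 63.7, 60.9, 60 and 61% in LPS. On that scale they were 64, 55.8, 62.2 and 55.2% in LPS + ET and 56.4, 46.5, 42.9 and 47.8% with both agents. The inhibitor group was then still below LPS but overlapped LPS + ET. The change of the Srsf2 ratio with KU55933 was -1.13 ± 0.249 (adjusted p = 0.014, not called), or -1.39 ± 0.226 without LPS + ET of LUL16 (adjusted p = 0.000388, called). Hnrnpa2b1 changed by -0.94 ± 0.194 (adjusted p = 0.0102, not called). Scaled per fraction, its share in heavy polysomes came to 85.5 ± 1.59% in LPS, 81.3 ± 5.0% with etoposide and 78.9 ± 3.85% with both agents. No member was called in this comparison (0.181% of all genes), 8 had an unadjusted p below 0.05 (12.9% of all genes) and DESeq2 called 3 (0.788%). The block fit called Srsf2 and Hnrnpa2b1 (1.12% of all genes).

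**Figure D4:**
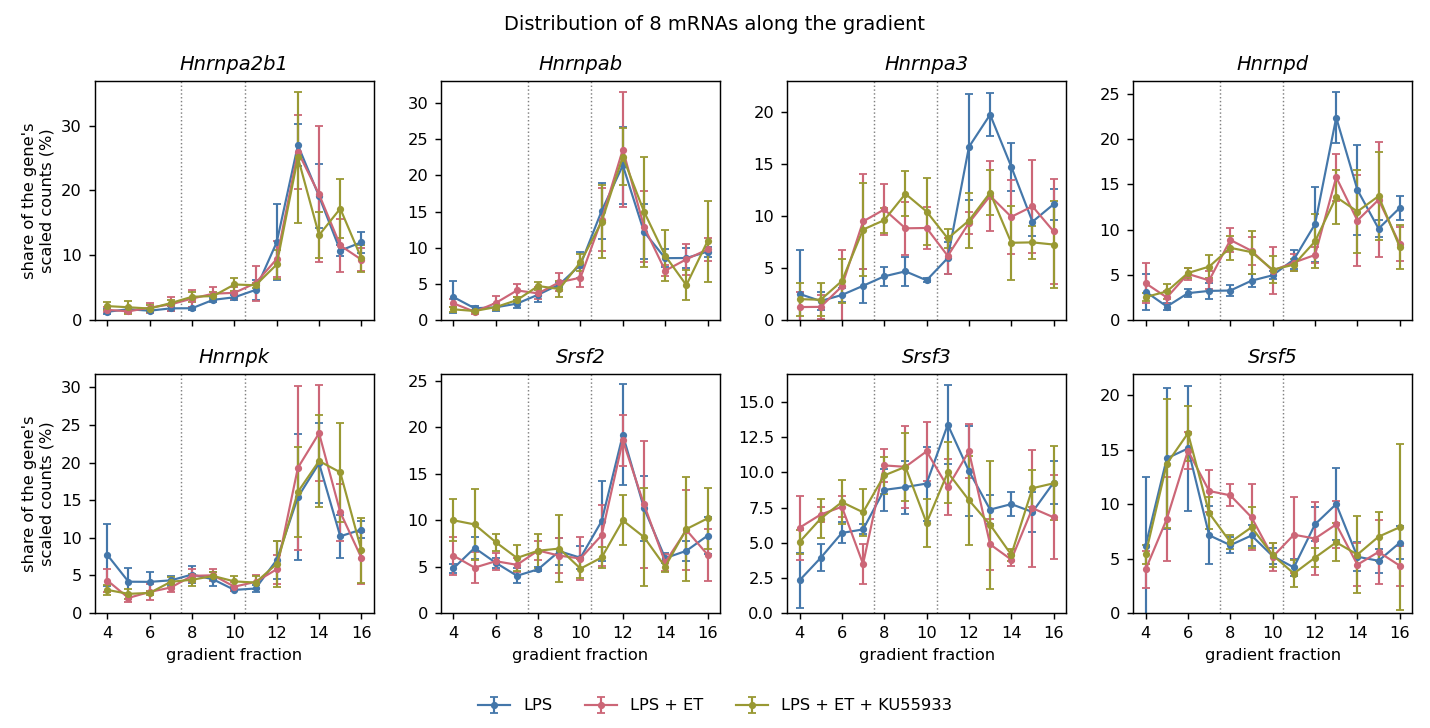
Share of a gene's counts in each fraction (mean ± SD of 4 gradients, in percent, each fraction scaled to the same total) along fractions 4 to 16 for 8 members, in LPS (blue), LPS + ET (pink) and LPS + ET + KU55933 (olive), with dotted lines between monosomes, light and heavy polysomes. Hnrnpa3 and Hnrnpd peak in fraction 13 at 19.7% and 22.4% in LPS and at 11.9% and 15.8% in LPS + ET, Hnrnpab keeps its peak in fraction 12, and Srsf5 peaks in monosomes.

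Along the 13 single fractions, a model of fraction, treatment and their interaction was called for 12 of 27 members in LPS + ET against LPS (31% of all genes) and for 1 member, Srsf12, in LPS + ET + KU55933 against LPS + ET (8.01%). The 12 were Srsf1, Srsf2, Srsf3, Srsf7, Srsf10, Srsf12, Hnrnpa2b1, Hnrnpa3, Hnrnpd, Hnrnpl, Hnrnpr and Hnrnpul1. Srsf12 again passed the filter through the groups where it is high. This test pools a change in level with a change in place, and it treats the 13 libraries of a gradient as independent, so its p-values are too small. With the interaction alone edgeR called 2 members (1.37% of all genes) and 0 (1.05%), and 4 and 2 members had an unadjusted p below 0.05 (13.3 and 9.20% of all genes). The block fit of the second comparison called 6 members (18.3% of all genes).

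Genes that act on or beside these factors were taken as lists from textbook knowledge. In the gradient sums, 2 of 8 SR protein kinases were lower in LPS + ET than in LPS (4.81% of all genes lower) and 2 with both agents (4.42% lower), in each case Prpf4b (-1.05 ± 0.21 and -0.98 ± 0.21) and Dyrk1a (-0.60 ± 0.14 and -0.78 ± 0.14). The ratio of heavy polysomes to monosomes changed after etoposide for 3 of the 8 (5.10% of all genes called), higher for Clk1, which phosphorylates SR proteins (1.28 ± 0.33), and lower for Dyrk1a (-1.22 ± 0.22) and Prpf4b (-1.10 ± 0.29). Of 39 SR-related proteins and other splicing regulators, 6 were lower in the sums of LPS + ET, 10 with both agents, and none higher, beside the same shares of 4.81 and 4.42% of all genes lower. They included Rbmx, an hnRNP G protein encoded on the X chromosome, at 715 ± 84.0 CPM in LPS and 247 ± 38.8 CPM in LPS + ET (-1.65 ± 0.20), Fubp1 (-1.40 ± 0.22), Celf2 (-1.24 ± 0.23) and Syncrip, or hnRNP Q (-1.14 ± 0.19). Sfpq, a paraspeckle protein, was lower with both agents (-1.76 ± 0.32).

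Of 50 core spliceosome genes tested, edgeR called 0 in the sums of LPS + ET (15 had an unadjusted p below 0.05, as did 34.4% of all genes) and 4 with both agents (4.42% of all genes lower), all lower: Ddx46, Prpf8, Sf3b3 and Snrpa (-1.26 to -0.85). Their median log2 fold change was -0.03 in LPS + ET and -0.32 with both agents, where the Srsf and Hnrnp genes had -0.37 and -0.76. The same medians were -0.34 and -0.43 for the 39 regulators and -0.25 and -0.23 for the 8 kinases. For the decay factors described next they were -0.09 and -0.32, and for the transportins 0.03 and -0.39. Nonsense-mediated decay degrades the poison-exon forms of SR mRNAs. Of its 13 factors, only Rbm8a was called in the sums of LPS + ET, and lower (-0.74 ± 0.17; 4.81% of all genes lower). None was called in the sums with both agents (4 at an unadjusted p below 0.05, as were 35.9% of all genes). Within classes of LPS + ET, 2 of the 13 were called in monosomes (9.52% of all genes) and 2 in light polysomes (10.6%). Rbm8a was lower in both classes, Upf3a was higher in monosomes (0.95 ± 0.19) and Smg1 in light polysomes (1.25 ± 0.26). With both agents 1 was called in light polysomes (7.13% of all genes), Smg9, which was higher (edgeR adjusted p = 0.00882). None of the 3 transportins that bring SR and hnRNP proteins into the nucleus was called by edgeR in any comparison of treatments in the gradient sums. At an unadjusted p below 0.05 there were 2 in LPS + ET against LPS (34.4% of all genes) and 1 in LPS + ET + KU55933 against LPS (35.9%). Between the etoposide groups there was 1. No gene of these 5 lists was called between LPS + ET + KU55933 and LPS + ET in the gradient sums (0.455% of all genes). At an unadjusted p below 0.05 there were 0 of the kinases, 7 of the regulators, 6 of the core genes and 3 of the decay factors. The share of all genes at that p in this comparison stands above, beside the members.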

How the data were processed

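PolyRibo-3′ RNA-seq counts were analysed for 12 gradients of mouse splenic B cells, 4 per treatment. The authors reverse-transcribed the same RNA concentration from every fraction with barcoded primers, removed PCR duplicates and A-tract artefacts, mapped to GRCm38/mm10 and deposited whole-number counts at poly(A) sites for each Ensembl gene. The submitters' processing notes name TopHat2 2.0.12, TopHat, HTSeq and DESeq2 1.6.3 without their roles. Counts of fractions 4 to 16, or of the monosome (4 to 7), light (8 to 10) and heavy (11 to 16) classes, were summed per gradient, so deep libraries weigh more. A gradient was named by treatment and the pool tag of its columns, which does not say that a pool was a set of animals or a day. Of the 156 columns, those of LUL16 and LUL18 match only a treatment and fraction in the labels.

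Tests used edgeR 4.0.16 (quasi-likelihood, TMM, filterByExpr) on all genes, in R 4.3.3, with Benjamini-Hochberg adjusted p below 0.01. All 3 treatments shared 1 fit. Class ratios used 36 class sums with the gradient as a term, and the profile test used 104 single-fraction libraries. Alternatives were relative log expression scaling, no filter, DESeq2 1.42.0, a threshold of 0.05, the pool as a block, equal weight per fraction (limma 3.58.1 on log2(mean CPM + 1)) and leaving out each gradient. Deviations of same-pool gradients correlated at 0.305 to 0.799 (12 of 12 above 0.1), those of different pools at -0.628 to 0.284 (5 of 36), so the pool numbers pair the gradients. Scripts were tested on simulated data. Intervals cover counting error only. Described genes were the 8 highest by mean CPM, up to 12 called in the sums, the 3 highest and 3 lowest class ratios in LPS and the 3 largest changes of that ratio with etoposide, with at most 4 called genes of each list. Srsf1 and Srsf9 were added after their values were seen. The members and lists were chosen with earlier results of these data known. The fraction 17 library (777 counts, 0 of them in these genes) was not tested.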

Additional observations from a re-analysis of the deposited data

Results flagged for a closer look

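Of 90 groups of 4 gradients tested with Dixon's ratio, 12 held an outlying gradient, where chance gives about 1 in 20. In 7 of the 12 it was the heavy polysome share of LPS + ET of LUL16, the gradient with the lowest total and 30.4% of all its counts in heavy polysomes: Srsf3 at 16.3%, Hnrnph3 at 28.1%, Srsf2 at 29.5%, Hnrnpa3 at 29.6%, Hnrnpab at 47.6%, Hnrnpa2b1 at 70.4% and Hnrnpk at 73.3%. The share of Hnrnpk was also outlying in LPS + ET + KU55933 of LUL16, at 63.9%. Among levels, Hnrnpc stood out in LPS + ET + KU55933 of LUL16 at 1275 CPM, Hnrnpa2b1 in LPS + ET + KU55933 of LUL15 at 665 CPM, Srsf3 in LPS of LUL15 at 428 CPM and Hnrnph3 in LPS of LUL18 at 17.5 CPM.

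The ratio of heavy polysomes to monosomes differed between treatments by the edgeR interaction test in 7 cases. Srsf3 changed by -0.93 in LPS + ET against LPS. In LPS + ET + KU55933 against LPS the changes were -1.62 for Hnrnpa3, -1.53 for Hnrnph3, -1.42 for Hnrnpd, -1.33 for Srsf2, -0.97 for Hnrnpa2b1 and -0.85 for Srsf3.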

How the results depend on the processing

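With the pool as a block, the members called against LPS were 13 in the sums, 9 in heavy polysomes, 8 in light polysomes and 8 in monosomes in LPS + ET, and 16, 13, 10 and 10 in LPS + ET + KU55933. Between the etoposide groups they were 3, 1, 1 and 0. The change of the ratio was called for 4 members in LPS + ET against LPS and 2 between the etoposide groups, and the profile for 6 between the etoposide groups. The block moved no other count of calls by over 1.5 times. The shares of all genes called in these fits stand beside the counts in the results, and those of the next settings are given in brackets. DESeq2 called 2 in light polysomes (15.2%) and 3 in monosomes (13.4%) in LPS + ET, 11 (14.7%), 3 (12%) and 5 (935 of 8932 genes) in heavy polysomes, light polysomes and monosomes in LPS + ET + KU55933 against LPS, 1 in the sums between the etoposide groups (3.24%), and 3 (6.94%) and 3 (0.788%) changes of ratio (LPS + ET against LPS and between the etoposide groups). With no filter the counts were 1 in light polysomes (5.78%) and 2 in monosomes (4.70%) in LPS + ET, 1 of them Srsf12 in each, 2 in monosomes in LPS + ET + KU55933 (2.98%), and 2 (3.23%) and 1 (0.214%) changes of ratio. At a threshold of 0.05 they were 7 in the sums (22.5%), 3 in light polysomes (19.7%) and 5 in monosomes (18.9%) in LPS + ET, 14 (22.8%), 11 (18.5%), 5 (16.8%) and 6 (15.1%) in LPS + ET + KU55933, 4 (11.9%) and 2 (0.906%) changes of ratio, and 3 profiles between the etoposide groups (13.2%). Equal weight per fraction gave 4 in the sums of LPS + ET + KU55933 against LPS (6.86%). The interaction alone gave 2 and 0 profiles, and scaling each fraction gave a median heavy polysome share in LPS of 64.5%.

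Leaving out 1 gradient, counts in LPS + ET ranged from 2 to 5 in heavy polysomes (6.20 to 12.9% of all genes), 0 to 1 in light polysomes (6.93 to 13.1%) and 1 to 2 in monosomes (5.56 to 12.1%), where the 1 in light polysomes was Srsf12, which was also among those in heavy polysomes. In LPS + ET + KU55933 against LPS they ranged from 5 to 10 in the sums (5.78 to 13.1%), 3 to 9 (3.93 to 11.8%), 1 to 3 (3.50 to 8.03%) and 0 to 2 (2.89 to 7.45%). Changes of ratio ranged from 0 to 2 in LPS + ET (2.46 to 5.89%) and 0 to 1 between the etoposide groups (0.0448 to 0.408%). Fold changes near 0 reversed. With equal weight, between the etoposide groups, Hnrnpc was at 0.18, Hnrnpa0 at 0.26 and Hnrnpd at 0.13, and against LPS Hnrnpc was at 0.02, Hnrnpa0 at 0.16 and Srsf5 at 0.10. With no filter Srsf4 in LPS + ET was at -0.02 and Hnrnpa1 between the etoposide groups at 0.00. Leaving out 1 gradient, ranges that crossed 0 were, between the etoposide groups, Hnrnpc -0.36 to 0.00, Hnrnpul1 -0.01 to 0.29, Srsf3 -0.30 to 0.07, Hnrnpa1 -0.17 to 0.15 and Hnrnph3 -0.16 to 0.06. They were -0.32 to 0.00 for Srsf6 and -0.18 to 0.09 for Srsf5 in LPS + ET + KU55933 against LPS, and -0.09 to 0.08 for Hnrnpa0, -0.10 to 0.11 for Srsf4 and -0.14 to 0.07 for Hnrnpk in LPS + ET. The cause was not tested. Depth limits Srsf12, Hnrnpa1, Hnrnph1 and Hnrnph2 most, with 218, 693, 691 and 10 counts in all.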
